A study of Mus musculus with 83 samples.

Results

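The miR-379 to miR-410 cluster of the mouse was taken as all features of the deposited small RNA table that lie on chromosome 12 from *Mir379* to *Mir410* and span less than 150 bp. It held 35 of the 32101 features, spread over 34771 bp (NCBIM37, chr12:110947235-110982005), with spans of 68 to 123 bp. Of these, 31 carry *Mir* names and lie on the plus strand. The other 4 carry the clone names *AC121784.1* to *AC121784.4* and lie on the minus strand, opposite the hairpins that RefSeq names *Mir409*, *Mir376a*, *Mir380* and *Mir299a*. The mature sequences of *Mir299b* were placed within *AC121784.4* as well. The noncoding host gene *Mirg* (chr12:110973191-110987665) covers 9 of the hairpins, *Mir496*, *Mir541*, *Mir412*, *Mir369*, *Mir410* and *AC121784.1* among them, and the other 26 lie upstream of it. *Mirg* itself was too long for the rule and was read only as a neighbour.

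The cluster belongs to the imprinted *Dlk1*-*Dio3* domain. There the chromosome inherited from the mother makes noncoding RNAs (*Meg3*, *Rian* and *Mirg*) with the small RNAs processed from them, while the paternal copy makes the protein-coding genes *Dlk1*, *Rtl1* and *Dio3*, and DNA methylation of a control region keeps the noncoding RNAs silent on the paternal copy. DNMT1 copies DNA methylation onto the new strand at each replication, so that cells without it lose methylation as they divide. A miRNA is cut from a hairpin and loaded into an Argonaute protein such as AGO2, where its seed (bases 2 to 8) finds target mRNAs. The cluster is best known from brain, placenta and embryo.

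The main data were 36 small RNA libraries of mouse embryonic stem cells (ESCs), 3 control and 3 Dnmt1 KO libraries on each of days 1, 3, 6, 9, 11 and 25. Both arms were grown in serum with LIF, and per the study's methods the line carried *Dnmt1* loxP/loxP alleles and lost *Dnmt1* when tamoxifen (4OHT) induced Cre, so the whole series rests on cultures of a single line. The methods do not say whether the control cultures received 4OHT. Effects of 4OHT or Cre therefore cannot be told apart from loss of *Dnmt1*. The labels give E14 as the background strain and the methods give C57BL/6, and the methods speak of culture with or without feeder cells without saying which libraries had them. A further 8 libraries held small RNA bound to AGO2 (4 control, 4 Dnmt1 KO). The labels give no day for these, but the paper's text does. They are also set beside day 9 of the time course below. Single libraries existed of RNA labelled none for each genotype, and of GFP-sorted primordial germ cells (PGCs, from which eggs and sperm arise, of C57BL/6J mice carrying an Oct4-GFP transgene) of female and male embryos at E13.5 and E14.5. The libraries of days 1 to 11 were also deposited a second time with the suffix R1. Summed over the cluster these gave 0.963 to 1.05 times the value of their namesakes (30 pairs), and they were not counted as further replicates. A further 3 PGC libraries with that suffix, of 60317 to 1328606 reads, differed from their namesakes in the cluster (16.6 to 3961 RPM) and were not used. Groups follow the sample titles, because the genotype tags contradict them in the R1, AGO2 and none libraries and the PGCs are tagged as ESCs. Nothing in the labels says that replicates came from separate cultures, so p-values measure only the spread between these libraries.

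Depth ran from 521066 to 6239009 reads per library in the time course. The values used are RPM (reads per 1000000 reads of the library). The *Dnmt1* row held 18.1 to 95.02 RPM over its whole span in both genotypes of the time course, with groups that overlapped on each day but 6 and 11, and cannot check the deletion since it counts RNA fragments outside the deleted part as well. The ESC miRNAs of the miR-290 and miR-302 families (11 of 11 found) summed to 111882 RPM or more in every time course and AGO2 group mean, against 12188 to 24376 RPM in the PGC libraries. Markers of neurons and muscle summed to 0.582 RPM or less. Fibroblast and blood miRNAs were present, and their values stand beside the results they move with.

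All 35 hairpins had mature sequences in RefSeq (GRCm38.p6), 68 in all, each of which was placed on NCBIM37 by exact match. Since reads were counted per hairpin, the arm that gave them cannot be told. The sequences below are the arms of the most abundant members and of the members with the largest and smallest changes on day 11, from the first to the last along the chromosome, with the seed in capitals.
miR-379-5p: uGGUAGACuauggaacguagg
miR-411-5p: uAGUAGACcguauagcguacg
miR-1197-3p: uAGGACACauggucuacuucu
miR-323-3p: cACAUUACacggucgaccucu
miR-758-3p: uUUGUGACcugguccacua
miR-543-3p: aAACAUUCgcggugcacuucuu
miR-300-3p: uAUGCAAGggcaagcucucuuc
miR-381-3p: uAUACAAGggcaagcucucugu
miR-496a-3p: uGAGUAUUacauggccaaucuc
miR-541-5p: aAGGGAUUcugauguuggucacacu
miR-409-3p: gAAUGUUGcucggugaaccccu
miR-412-5p: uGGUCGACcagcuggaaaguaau
miR-369-3p: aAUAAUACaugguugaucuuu
miR-410-3p: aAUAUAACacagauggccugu

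On the plus strand of NCBIM37, miR-379-5p lies at chr12:110947275-110947295, miR-411-5p at chr12:110948400-110948420, miR-381-3p at chr12:110965080-110965101, miR-541-5p at chr12:110980632-110980656, miR-409-3p (the miRNA opposite *AC121784.1*) at chr12:110981414-110981435 and miR-410-3p at chr12:110981974-110981994. At 25 nt, miR-541-5p is longer than the 20 to 24 nt reads that were kept, so reads of its full length were not counted. The RefSeq entry of miR-758-3p, at 19 nt, is shorter than those reads.

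The members are related but mostly do not share a seed. The 68 mature sequences had 62 different seeds, and 5 seeds occurred in more than 1 member. Of these, AUGUAAC joined both 3p arms of the first neighbours, GGUAGAC joined miR-379 with miR-1193, and GGUUGUC joined miR-494 with miR-410.
miR-379-3p: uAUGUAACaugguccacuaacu
miR-411-3p: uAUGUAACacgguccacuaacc
miR-379-5p: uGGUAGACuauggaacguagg
miR-1193-5p: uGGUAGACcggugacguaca
miR-494-5p: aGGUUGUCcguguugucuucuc
miR-410-5p: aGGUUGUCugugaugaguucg

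The remaining shared seeds were GGUUGAC (miR-1197-5p and miR-758-5p) and GGUUGCC (miR-453 and miR-496a-5p). Hairpins of *Mir411* and *Mir758* share a run of 20 bases, as do those of *Mir376b* and *Mir487b*, so the split of reads within these pairs is uncertain.

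Summed over the cluster, the genotypes overlapped on day 1, Dnmt1 KO lay above control from day 3 on with its highest level on day 25, and the controls held only a few reads by day 25. On day 1 the summed RPM of the 35 members was 3592, 3510 and 3932 in the control libraries and 4071, 3575 and 4088 in Dnmt1 KO. Day 3 gave 3499, 3370 and 3175 in control and 6786, 5106 and 5068 in Dnmt1 KO. By day 6 the Dnmt1 KO libraries were at 19551, 19379 and 18139, against 1721, 1727 and 1515 in control. From day 6 on the lowest Dnmt1 KO library stood far above the highest control library.

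**Figure D1:**
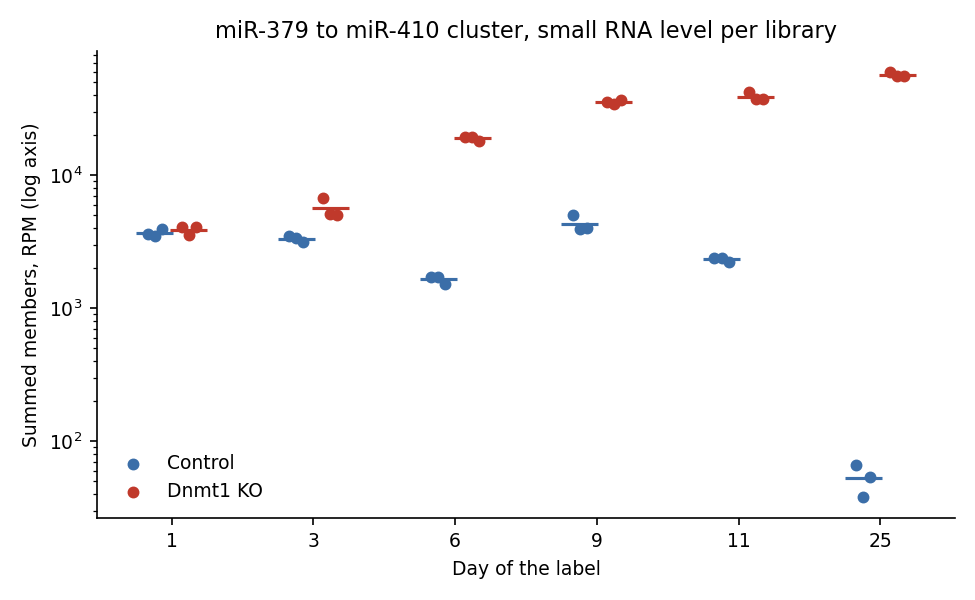
Summed RPM of the 35 members in each time course library (points, log axis) by day and genotype, with bars at the group means (n = 3). Control and Dnmt1 KO lie together on day 1 and are 16.7-fold apart on day 11, and the day 25 controls drop to between 38.4 and 66.3 RPM.

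The later days continued in the same way. On day 9 the controls held 5057, 3918 and 4038 RPM and Dnmt1 KO 35495, 34153 and 36656. Day 11 gave 2378, 2410 and 2225 in control, where Dnmt1 KO held 42395, 37613 and 37441. On day 25 the controls held 66.3, 38.4 and 54.0 RPM, from 37, 20 and 44 reads, and Dnmt1 KO held 59870, 55853 and 55769. Group means thus went from 3911 ± 292 (SD, n = 3) on day 1 to 57164 ± 2344 on day 25 in Dnmt1 KO, 14.6-fold, and from 3678 ± 224 to 52.9 ± 14.0 in control. The ratio of the means, Dnmt1 KO over control, was 1.06 on day 1, 1.69 on day 3, 11.5 on day 6, 8.17 on day 9, 16.7 on day 11 and 1081 on day 25.

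The control level did not run evenly: it was 1654 ± 121 on day 6, 4337 ± 626 on day 9 and 2338 ± 98.8 on day 11. The dip of the ratio on day 9 therefore goes with a control mean 2.62 times that of day 6, while Dnmt1 KO also stood higher on day 9 than on day 6. Among the fibroblast miRNAs, *Mir214* moved with the control level from day 6 on. *Mir214* was at 63.7 RPM in control on day 6, 205 on day 9, 101 on day 11 and 0.598 on day 25, and in Dnmt1 KO at 126, 289, 134 and 2.13. The whole fibroblast list (7 of 8 names found, with *Mir199a-1* at 0 throughout) summed to means of 23762 to 46961 RPM in the control groups and 27534 to 77613 in Dnmt1 KO, most of it *Mir21*, *Mir22* and *Mir143*, which are not particular to fibroblasts. Its control sum thus had no fall like that of the cluster by day 25. The 3 blood miRNAs summed to means of 692 to 2305 RPM in the control groups and 772 to 2483 in Dnmt1 KO, with the widest gap on day 11 (692 against 1949) and the opposite order on day 25 (998 against 772). The part of either list in the levels of the cluster was not tested. On day 25, where the genotypes differed most, *Mir199a-2* was at 0 in control and 0.963 RPM in Dnmt1 KO. In bulk samples, fewer cells that make an RNA and less RNA per cell cannot be told apart.

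Each day was then tested member by member, to ask which hairpins differed between genotypes and when. A member needed 10 RPM in 3 libraries to enter, which 31 of 35 did. Of the rest, *Mir654* had 0 reads in all 83 libraries, *Mir453* had 1 read, *Mir544* had 30, and *Mir539*, with 363 reads over the 36 time course libraries, stayed below the limit there. Changes are given as log2 fold changes on the log2(RPM + 1) scale from 1 limma fit of all 2582 features that passed, with p-values adjusted over all of them (Benjamini-Hochberg, threshold 0.05). This scale understates the change of rare members.

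On day 1 a single member of 31 passed the test, against 3.80% of all features called and 2.87% called higher. This was *Mir329*, at 15.5, 8.85 and 9.19 RPM in control and 18.3, 19.0 and 19.7 in Dnmt1 KO, a log2 fold change of 0.67 (SE 0.17, adjusted p = 0.0163 in limma). The groups did not overlap, though 1 control library lay close to the Dnmt1 KO values. That call was lost without control library 2 or 3 or Dnmt1 KO library 3, with voom and with the 6 libraries of the day fitted alone, and the direction turned with the R1 libraries (-0.68). At an unadjusted limma p under 0.05 there were 3 members, but no share over all features was computed at that threshold. The libraries of Dnmt1 KO lay wholly above those of control for 5 of the 31, close to the 15.6% of all features that did so. The median over the 31 members was 0.08, beside 0.02 over all features. Ratios of the group means ran from 0.889 for *Mir379* to 2.17 for *Mir494*, a rare member on that day.

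By day 3, 15 of 31 members were higher in Dnmt1 KO and none was lower, against 6.24% of all features called, 4.49% called higher and 1.74% called lower. The count depended on the settings, with 7 for a pseudocount of 0.25, 5 without the filter and 8 with the R1 libraries. Their median log2 fold change was 0.72, from -0.06 to 1.22, beside -0.02 over all features. The Dnmt1 KO libraries lay wholly above the control libraries for 23 of the 31, which 12.9% of all features did. The 3 members with the lowest adjusted p sit together near the 3' end of the cluster. *Mir541* was at 822, 767 and 729 RPM in control and 1286, 1308 and 1216 in Dnmt1 KO, a rise of 0.74 (SE 0.13, adjusted p = 0.000143 in limma). *Mir410*, the last hairpin, went from 424, 483 and 459 to 1155, 769.9 and 722 RPM, a rise of 0.94 (SE 0.16, adjusted p = 0.000127 in limma). The first of its Dnmt1 KO libraries stood apart from the other two, and the same library was highest for *Mir411* and *Mir300*. For *Mir369*, the neighbour of *Mir410*, the values were 19.0, 21.2 and 17.1 RPM in control and 37.3, 33.4 and 34.7 in Dnmt1 KO, a rise of 0.87 (SE 0.16, adjusted p = 0.000378 in limma).

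Library 1 of Dnmt1 KO mattered for the day 3 count. Without it 9 members passed in place of 15, while the median stayed between 0.71 and 0.78 whichever library was left out. Its summed level was 6786 RPM, beside 5106 and 5068 in the other two. The same library was highest in the fibroblast list, at 96067 RPM against 62802 and 60309 in the other two and 43206 to 43778 in control, and in the blood list, at 3379 RPM against 1645 and 1792, with 1575 to 1723 in control. Without it, the summed cluster was still above each control library in both others. *Mir411*, the most abundant member, was at 1379.7, 1187 and 1130.4 RPM in control and 2611, 1655 and 1737 in Dnmt1 KO, a rise of 0.69 (SE 0.21, adjusted p = 0.0375 in limma). *Mir379* at the 5' end rose by 0.73 (SE 0.17, adjusted p = 0.00443) and *Mir381* by 0.70 (SE 0.16, adjusted p = 0.00434), both in limma. The minus-strand feature *AC121784.1* was at 142, 162 and 152 RPM in control and 241, 245 and 254 in Dnmt1 KO. Its groups did not overlap, but its difference of 0.72 (SE 0.25) did not pass (adjusted p = 0.0833 in limma).

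From day 6 on, all 31 members tested were higher in Dnmt1 KO. On day 6 this stood beside 23.0% of all features called and 13.7% called higher, and the median was 3.26 (range 1.90 to 6.16) beside 0.14 over all features. On day 9 it stood beside 18.4% called and 12.3% called higher, with a median of 3.14 (2.14 to 6.21) beside 0.09. On both days the groups of each of the 31 members did not overlap, as held, in the direction of higher Dnmt1 KO, for 32.1% and 21.4% of all features. Members rare in control passed the filter only through Dnmt1 KO libraries. Examples are *Mir412* and *Mir1197*, whose highest control means of any day were 2.27 and 4.11 RPM. For such members a higher Dnmt1 KO on the later days was partly a condition of entry.

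The member furthest from its control was *Mir758*. On day 6 it held 5.80, 6.19 and 5.67 RPM in control and 528, 537 and 504 in Dnmt1 KO, a log2 fold change of 6.16 (SE 0.29, adjusted p = 2.93e-20 in limma), and the ratio of its means was 88.9. Its neighbour *Mir411*, with which it shares 20 bases, held 628, 639 and 597 RPM in control and 4878, 4806 and 4482 in Dnmt1 KO, a log2 fold change of 2.82. Control levels of the pair moved apart between day 1 and day 11: *Mir758* went from 25.193, 22.6 and 20.7 RPM to 4.31, 5.72 and 4.53, and *Mir411* from 1254, 1280.4 and 1341 to 875, 981 and 861. The smallest change on day 6 was that of *Mir496*, from 3.36, 3.71 and 2.27 RPM to 14.999, 17.4 and 12.958, a change of 1.90.

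Which members rose most hardly changed from day 6 to day 11. Across the 31 members the log2 fold changes had a Spearman rho of 0.89 between days 6 and 9, 0.87 between days 9 and 11, and 0.22 between days 3 and 6. These are descriptions over members of 1 locus, counted in the same libraries within a day, and members are not independent. Position along the cluster had little to do with the size of the change, with rho of -0.13 on day 6, -0.17 on day 9, -0.06 on day 11 and -0.03 on day 25. The 8 tested members inside *Mirg* had a median of 3.95 on day 11 and the 23 outside it 4.17.

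**Figure D2:**
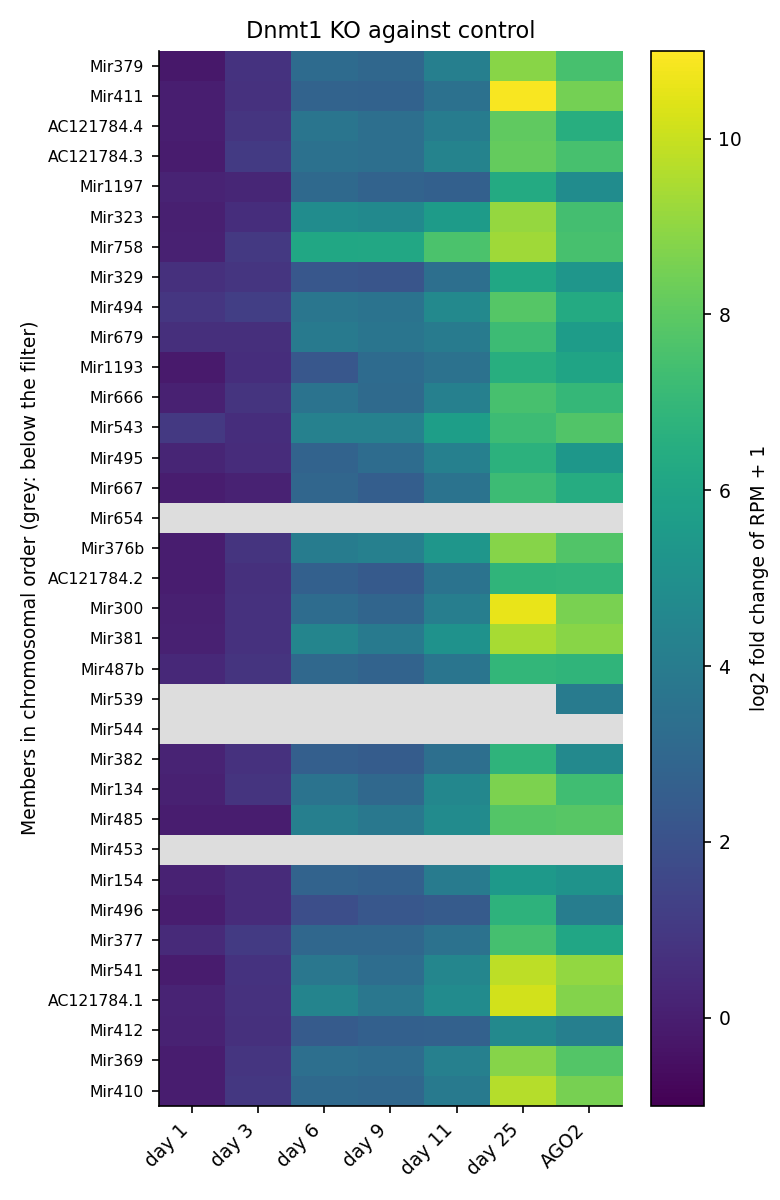
Log2 fold change on the log2(RPM + 1) scale, Dnmt1 KO against control, of the members in chromosomal order (rows) on the 6 days and in AGO2 immunoprecipitates (columns), with members below the filter in grey. The column of day 1 is near 0, that of day 3 spans -0.06 to 1.22, and those of days 6 to 25 and AGO2 are positive for each member tested.

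On day 11 the 31 members were higher again, against 8.64% of all features called and 6.27% called higher, and the groups of none of them overlapped (11.8% of all features did so in this direction). The median was 4.15, from 2.44 to 7.59, beside -0.05 over all features. Ratios of the means ran from 6.01 (*Mir496*) to 220.5 (*Mir758*) with a median of 18.2. The abundant members nearer the 3' end rose by similar factors. *Mir541* was at 568, 527 and 533 RPM in control and 12256, 10886 and 11506 in Dnmt1 KO, a log2 fold change of 4.49 (SE 0.13, adjusted p = 2.01e-27 in limma). *Mir410* was at 326, 329 and 285 RPM in control and 4869.7, 4457 and 4186 in Dnmt1 KO, a change of 3.92 (SE 0.16). *Mir369* beside it was at 19.1, 16.5 and 11.5 RPM and then at 294, 262 and 299.9, a change of 4.20 (SE 0.16).

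The feature opposite miR-409, *AC121784.1*, held 91.0, 83.0 and 79.5 RPM in control and 2488, 2074 and 2057 in Dnmt1 KO, a change of 4.77 (SE 0.25). Whether its reads were counted by strand is not stated, and its mature miRNA lies on the strand opposite the feature. In the middle of the cluster, *Mir381* and *Mir300*, which end in nearly the same letters but differ in their seeds (AUACAAG and AUGCAAG), did not rise alike. *Mir381* went from 108, 92.5 and 86.5 RPM to 3474, 2939 and 2945, a change of 5.10 (SE 0.16). *Mir300* went from 187, 169.8 and 165 RPM to 3135, 2857 and 2812, a change of 4.15 (SE 0.19). The difference between the 2 changes was not tested.

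At the 5' end, *Mir379* held 21.3, 25.04 and 16.5 RPM in control and 391.5, 351 and 364 in Dnmt1 KO, a change of 4.17 (SE 0.17, adjusted p = 1.94e-22 in limma). *Mir411*, which lies next to it and outnumbered it in each of these libraries, went from 875, 981 and 861 RPM to 10437, 9558 and 8945, a smaller change of 3.49 (SE 0.21). Hairpins so close to each other thus differed widely in level while both rose.

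The 3 largest changes of day 11 were all in hairpins nearer the 5' end that were nearly silent in control. *Mir758* held 4.31, 5.72 and 4.53 RPM in control and 1293, 955 and 963 in Dnmt1 KO, a change of 7.59 (SE 0.29, adjusted p = 1.67e-23 in limma). *Mir543* held 1.89, 2.15 and 0.824 RPM and then 137, 118 and 127, a change of 5.73 (SE 0.37). *Mir323* held 3.50, 3.82 and 3.296 RPM and then 239.8, 182 and 194, a change of 5.58 (SE 0.23). The highest control means of *Mir543* and *Mir323* on any day were 5.24 and 7.67 RPM. Both passed the filter only through Dnmt1 KO libraries, so a higher Dnmt1 KO was partly a condition of entry for them. The 3 smallest changes were in members that stayed rare in Dnmt1 KO. *Mir496* was at 5.39, 3.1004 and 4.53 RPM in control and 26.9, 26.7 and 24.7 in Dnmt1 KO (2.44, SE 0.26). *Mir1197* was at 2.96, 1.67 and 3.296 RPM and then at 23.3, 24.03 and 15.7 (2.68, SE 0.30). *Mir412* was at 0.269, 1.67 and 1.24 RPM and then at 13.4, 9.89 and 11.7 (2.75, SE 0.34), and on the scale with 1 RPM added such low values shrink most. Across all 31 members, the change had little relation to the control level of the day (rho 0.11).

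**Figure D3:**
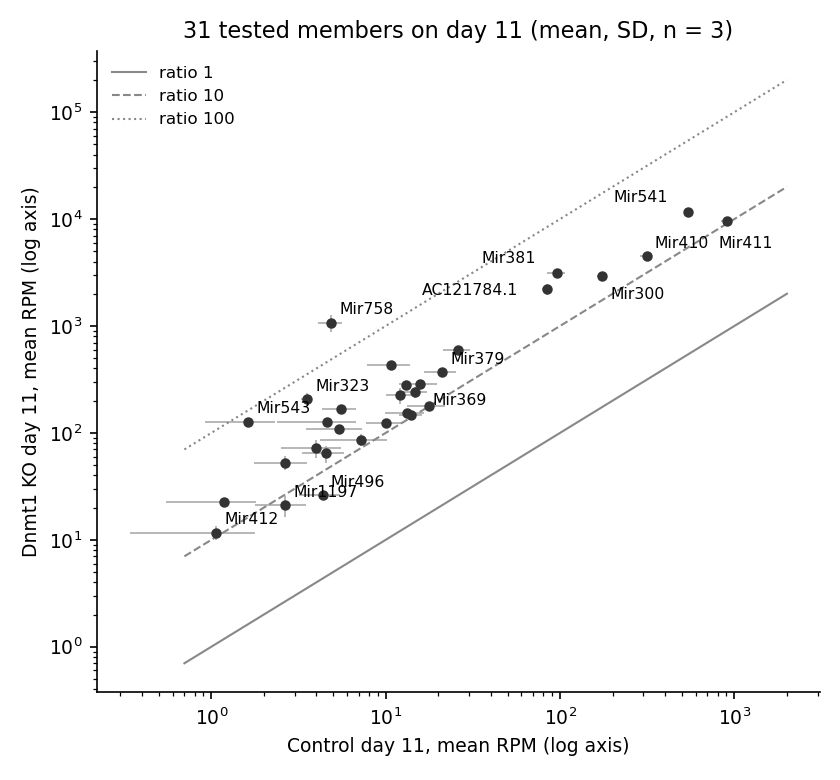
Mean RPM of each tested member on day 11 in control (x axis, log) and Dnmt1 KO (y axis, log), with SD over 3 libraries as bars and lines at ratios of 1, 10 and 100. All points lie above the line of equal level, and *Mir758* is the point beyond the 100-fold line.

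The change of the genotype effect was itself tested. From day 1 to day 11 it grew for 31 of 31 members, against 9.02% of all features with a changed effect and 6.04% with a higher one, by 2.48 (*Mir1197*) to 7.48 (*Mir758*) with a median of 3.99. *Mir541*, for example, gained 4.58 (SE 0.18, adjusted p = 3.04e-22 in limma). From day 11 to day 25 it grew again for 31 of 31, beside 20.5% of features changed and 10.7% higher, with a median of 3.54. The gains over that last interval were largest for *Mir411* (7.41, SE 0.29) and small for *Mir543* (1.52, SE 0.52, adjusted p = 0.0323 in limma) and *Mir758* (1.71, SE 0.41). This ranking is limited by the floor, since a control can fall only as far as its day 11 level allows. That level was 906 RPM for *Mir411*, 1.62 for *Mir543* and 4.85 for *Mir758*. Across the 31 members, the day 25 change had a rho of 0.81 with the control level of day 1.

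Over that last interval the summed mean went from 2338 to 52.9 RPM in control and from 39150 to 57164 in Dnmt1 KO. In Dnmt1 KO, 26 of 31 members had a higher mean on day 25 than on day 11 and 5 a lower one. The same split over all features was not counted, so it cannot be told apart from a general shift between these days. *Mir323* went from 239.8, 182 and 194 to 593, 569 and 538 RPM, and *Mir496* from 26.9, 26.7 and 24.7 to 121, 136 and 83.4, whereas *Mir329* went down from 182, 172 and 177 to 78.8, 62.8 and 70.1. These day 25 against day 11 values are a description and were not tested.

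In the controls, 101 reads of the cluster were left on day 25 over 3 libraries. All 31 members tested were lower than on day 1, against 50.9% of all features called and 28.1% called lower, with a median log2 change of -3.56 (-7.18 to -1.57) beside -0.04 over all features. *Mir411* fell from 1254, 1280.4 and 1341 RPM to 14.3, 3.84 and 11.04, by 7.18 on the log2 scale (SE 0.21, adjusted p = 6.6e-28 in limma). *Mir541* went from 876, 922 and 1164 RPM to 12.5, 13.4 and 20.8, and *Mir379* from 39.2, 35.9 and 55.1 RPM to 0 in all 3. The falls of *Mir1197* and *Mir412*, by 1.57 and 1.61, start from about 2 RPM and end at 0. Over the same interval all 31 members rose in Dnmt1 KO, beside 47.1% of features called and 21.3% called higher, with a median of 3.80 (1.89 to 6.16). With TMM over all features, 21.7% of 1378 called features were higher in this comparison in place of 45.2% of 1217, and 27.3% of 1361 in place of 44.7% of 1314 in the controls.

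The day 25 comparison thus set high levels against almost nothing. All 31 members were higher in Dnmt1 KO, beside 35.0% of all features called and 18.0% called higher, and none overlapped (11.7% of all features). The median of the fitted changes was 7.78 (4.67 to 10.90), beside -0.00 over all features, but this size depends on the 1 RPM that was added. Of all 35 members, 18 had 0 reads in the 3 controls (14 of the 31 tested), 12 had 1 to 3 and 5 had more. In 26 of the 31 the control was at or under 3 reads per library, and with each of these set to that floor the median ratio of the means was 52.1, or 5.70 on the log2 scale. With only the zeros set to the floor it was 255.

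For the 5 members with more than 3 control reads a ratio can be given with an interval, which covers counting error only (95%, exact). *Mir541* held 14129, 13889 and 12962 RPM in Dnmt1 KO, a pooled ratio of 838 over the control (590.4 to 1233). *Mir411* held 19018, 15516 and 17507 RPM, a ratio of 1714 (1097 to 2847). *Mir410* held 5839, 6232 and 5843 RPM, a ratio of 812 (484 to 1485). These 3 intervals overlap. *Mir381*, at 5009, 4907 and 4313 RPM, had a ratio of 696 (407 to 1307), and *AC121784.1*, at 5876, 5506 and 5327 RPM, one of 1174 (618 to 2567).

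Members without control reads have only lower bounds, computed against 3 reads per library. On this basis *Mir323*, at 593, 569 and 538 RPM in Dnmt1 KO, was at least 115-fold higher. *Mir379* at 492, 480.3 and 447 RPM was at least 95.8-fold higher and *Mir369* at 468, 452 and 445 RPM at least 92.2-fold. The rare members *Mir496*, *Mir1197* and *Mir412* were at least 22.9-fold, 16.6-fold and 5.09-fold higher. Between these stand members with 1 to 3 control reads. *Mir758* had 2 reads, a ratio of 998 (276 to 8245), and *Mir300* had 2 reads, a ratio of 2645 (732 to 21841).

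AGO2 immunoprecipitates were compared apart, to see whether the miRNAs found bound to the protein changed alike. All 32 members tested were higher in Dnmt1 KO, against 36.4% of the 456 features tested and 24.8% called higher. No member's groups overlapped (31.6% of features in this direction). None of these members reached the filter limit in enough control libraries, so each entered only with the help of Dnmt1 KO libraries. A higher Dnmt1 KO was therefore partly a condition of entry here as well. The median log2 fold change was 6.95 (3.98 to 9.06), beside 0.10 over all features. The summed level was 319.6, 290.9, 23.1 and 23.95 RPM in control and 48671, 54580, 45370 and 49334 in Dnmt1 KO.

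The control immunoprecipitates thus fell into a higher pair, libraries 1 and 2, and a lower pair, libraries 3 and 4, whereas the Dnmt1 KO libraries did not. The fibroblast list followed the same order in control (75974 and 81801 against 48962 and 60481 RPM), by a far smaller factor. With the pairs fitted apart, the median log2 fold change of the 32 members was 6.07 for libraries 1 and 2 and 7.70 for 3 and 4. These fits kept the features of the full AGO2 fit, so the condition of entry holds for them too.

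**Figure D4:**
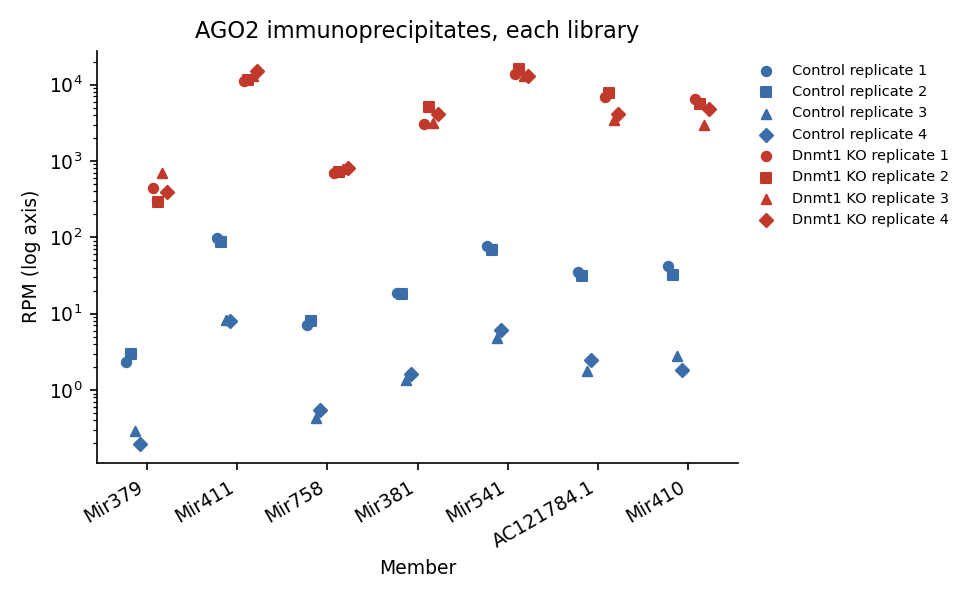
RPM (log axis) of 7 members in each of the 4 control and 4 Dnmt1 KO AGO2 libraries, with a point per library. Control points form a higher and a lower pair for each member, and all Dnmt1 KO points lie above both.

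By its mean in Dnmt1 KO the most abundant bound member was *Mir541*, at 76.1, 68.2, 4.80 and 6.097 RPM in control and 13601, 15764, 12839 and 12823 in Dnmt1 KO, a log2 fold change of 9.06 (SE 0.82, adjusted p = 1.56e-05 in limma). *Mir411*, which was higher than *Mir541* in each control library and in Dnmt1 KO libraries 3 and 4, held 97.9, 86.1, 8.20 and 8.02 RPM in control and 11111, 11635, 12863 and 14975 in Dnmt1 KO (8.51, SE 0.78). *Mir381* held 18.6, 18.0, 1.36 and 1.61 RPM and 3043, 5130.4, 3186 and 4093 (8.88, SE 0.71). At the ends of the cluster the values were lower or more scattered. *Mir379* held 2.30, 2.96, 0.291 and 0.197 RPM in control and 442, 290.2, 703 and 395 in Dnmt1 KO (7.51, SE 0.46), and *Mir410* 42.7, 31.7, 2.77 and 1.85 RPM and 6379, 5647, 2992 and 4831 (8.52, SE 0.86).

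*AC121784.1* split the bound Dnmt1 KO libraries as well, at 6907, 7673, 3447 and 4111 RPM, against 35.3, 30.7, 1.80 and 2.48 in control (8.77, SE 0.84). *Mir758*, which had the largest change on days 6, 9 and 11, was at 7.21, 7.91, 0.437 and 0.551 RPM in control and 694, 722, 779.7 and 808 in Dnmt1 KO, a change of 7.53 (SE 0.62). The smallest changes were again in rare members, 3.98 in *Mir539*, 4.10 in *Mir496* and 4.16 in *Mir412*. The fibroblast list summed to 66804 RPM in control and 99612 in Dnmt1 KO, with *Mir143* at 1554 and 4054 but *Mir214* at only 0.132 and 3.07. The 3 blood miRNAs summed to 1951 RPM in control and 6265 in Dnmt1 KO there, and their part was not tested.

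Levels of the members in AGO2 Dnmt1 KO and in the day 25 Dnmt1 KO libraries kept nearly the same order (rho 0.91, n = 31 members), and likewise with day 11 (rho 0.88). These share the length of each hairpin and its sequence, and no p is given. The ratio of the summed means, Dnmt1 KO over control, was 301 in AGO2 (49489 over 164 RPM). In the total RNA of day 9 it was 8.17 (35435 over 4337 RPM). The difference between these ratios was not tested. The AGO2 libraries and the total RNA were not fitted together, so no enrichment in AGO2 was measured.

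A few hairpins made most of the cluster's RNA in every group. In the time course *Mir411* averaged 4250 RPM over the 36 libraries, *Mir541* 3814, *Mir410* 1705, *Mir381* 1080.2, *AC121784.1* 1066 and *Mir300* 906. Together these 6 took 86.7% to 90.5% of the summed RPM in the group means of days 1 to 11. The makeup shifted between genotypes while the sum rose. On day 1 *Mir411* made 35.2% ± 1.21 (SD, n = 3) of the cluster in control and 35.6% ± 0.460 in Dnmt1 KO. By day 11 its share was 38.7% ± 1.95 in control and 24.6% ± 0.761 in Dnmt1 KO, so the groups no longer overlapped.

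*Mir541* was the largest member in Dnmt1 KO on days 6 and 11, with 29.5% ± 1.04 on day 11 against 23.2% ± 1.19 in control. *Mir411* led on day 9 and again on day 25, when it made 30.3% ± 2.20 beside 23.9% ± 0.853 for *Mir541*. *Mir381* stood at 3.56% ± 0.309 and 3.77% ± 0.177 on day 1, and on day 11 at 4.09% ± 0.385 in control against 7.96% ± 0.206 in Dnmt1 KO. *Mir758* went from 0.623% ± 0.0894 of the cluster to 0.207% ± 0.0284 in control and from 0.679% ± 0.124 to 2.72% ± 0.287 in Dnmt1 KO over the same days. Shares within the cluster are tied to each other, since a rise of one lowers the rest. The day 25 controls, with 20 to 44 reads each, are too shallow for shares to be compared.

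The rise was not particular to these hairpins within the domain. Of 17 further miRNAs that lie upstream, near *Meg3*, opposite *Rtl1* and within *Rian*, 13 were tested in the time course. In limma 0 of 13 were called on day 1. At an unadjusted limma p under 0.05 there was 1, again without a share over all features. On day 3, 7 of 13 were called higher, and 13 of 13 on each of days 6, 9, 11 and 25. Their medians were 0.12, 0.65, 3.16, 2.77, 3.77 and 8.61 over the 6 days, beside 0.08, 0.72, 3.26, 3.14, 4.15 and 7.78 for the cluster, and 12 of 12 were higher in AGO2. The difference between the lists was not tested. *Mir127*, the most abundant of them, stood on day 11 at 2669.7 ± 197 RPM in control and 34432 ± 3148 in Dnmt1 KO.

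The noncoding host genes rose too. *Mirg* went from 978 ± 44.6 RPM to 18817 ± 1206 on day 11, though at most 202 of its reads in a library fell outside member hairpins, and *Rian* from 176 ± 17.5 to 2700.2 ± 217. *Meg3*, the first of the maternal transcripts, rose from 1.24 ± 0.431 to 21.3 ± 1.36 RPM. Both rows include miRNA hairpins counted above (*Mir341*, *Mir1188* and *Mir370* in *Rian*, *Mir1906-1* and *Mir770* in *Meg3*). Without these, *Rian* held 139 ± 16.7 RPM in control and 1708 ± 57.8 in Dnmt1 KO, and *Meg3* 0.487 ± 0.625 and 10.1 ± 1.33, values that were not tested. *Rtl1*, the paternal protein-coding gene, went from 3762 ± 226 to 46431 ± 3897, but its row includes the hairpins of miRNAs on its other strand, and strand use is not stated. *Dlk1* and *Dio3* held 0 to 1.92 RPM in the libraries of days 11 and 25.

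The libraries labelled none and those of PGCs had 1 library per group, so their values have no replicate check. Of RNA labelled none, the control library had 23 cluster reads of 57155 (0.0402%, Wilson 95% interval 0.0268 to 0.0604%) and the Dnmt1 KO library 219 of 9830 (2.23%, 1.95 to 2.54%). In PGCs the cluster summed to 2538 RPM in females and 2500.4 in males at E13.5, and to 1427 and 1522 at E14.5. These lie within the range of the control ESCs of days 1 to 11 (1515 to 5057), or just below it. The makeup differed too: *Mir411* made 13.52 to 16.2% of the cluster in the 4 PGC libraries and *AC121784.1* 16.8 to 20.3%, against 24.6% or more and 7.53% or less in each time course group mean of days 1 to 11. *Mir379* was at only 2.33 to 7.49 RPM in PGCs, and *Mir541* led with 453 to 715 RPM.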

How the data were processed

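Small RNA of 83 libraries was read from 1 deposited table. Per the labels the authors trimmed with Trim Galore 0.3.5 and mapped with Bowtie2 2.2.9 to NCBIM37. Per the methods they kept 20 to 24 nt and counted in SeqMonk. The deposited values are RPKM; RPM was RPKM times feature length in kilobases, and low values were whole multiples of 1 read (tolerance 5%). No column was left out (0 unused). Features with at least 10 RPM in 3 libraries were fitted in R 4.3.3 with limma 3.58.1 (limma-trend, two-sided) on log2(RPM + 1) after TMM scaling (own code, 30% and 5% trims). The 36 time course libraries shared 1 fit and the 8 AGO2 libraries another. In simulated data for day 11 (2582 features), 18% of 1.5-fold, 56% of 2-fold and 100% of 4-fold changes were recovered. Equal replicate numbers did not pair time course libraries (0 of 18 correlations over 0.1) but met the rule for AGO2 (4 of 4, 0.194 to 0.386), although 2 of the 4 correlated more with another number (highest 0.218 to 0.385). Named members were *Mir379*, *Mir410*, *Mir541*, *Mir381*, the 6 most abundant, the 3 with the lowest adjusted p on day 3, and the 3 largest and 3 smallest changes on day 11. Members and lists were chosen with earlier results of these data known. Intervals cover counting error only.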

Additional observations from a re-analysis of the deposited data

Results flagged for a closer look

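The genotype effect of all 31 members tested grew from day 1 to day 11 by the interaction test, and the effect of 31 members grew again from day 11 to day 25. The Dnmt1 KO library of RNA labelled none, which no comparison used, held 22279 RPM of the cluster from 219 reads, above the 402 RPM of its control. Libraries that stand apart were looked for in 30 values of AGO2 groups of 4, of which 0 passed Dixon's limit, where chance gives 1 in 20. Dixon's ratio looks for a single outlying library, so it cannot flag a split into pairs such as that of the AGO2 controls.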

How the results depend on the processing

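From day 6 on and in AGO2 the count of members called stayed at all those tested under each alternative scaling, the 50 RPM filter, and each pseudocount, model and left-out library, with 30 to 31 for the change from day 11 to day 25 without single libraries. Without a filter, members with almost no reads entered the time course fit, such as *Mir453* with 1 read. These could not be called on days when both genotypes held 0 reads. A day 1 count of 1 became 2 with library totals only, a 50 RPM filter, totals without the cluster, TMM over all features or the R1 libraries, and 0 with voom or that day alone, with 0 to 3 without single libraries. The day 1 median was 0.29 with the R1 libraries. On day 3 the count of 15 became 7 with a pseudocount of 0.25, 5 without a filter and 8 with the R1 libraries, and 9 to 14 without single libraries. The day 11 median was 3.83 with a pseudocount of 5 and 3.94 to 4.20 without single libraries. The day 25 median was 5.54 and 9.27 with pseudocounts of 5 and 0.25, 7.19 without a filter, 7.98 at 50 RPM, 8.18 with voom, 7.88 with totals without the cluster, 7.43 with TMM over all features, and 7.54 to 7.97 without single libraries. In AGO2 the median was 5.21 and 8.06 with those pseudocounts, 8.97 with voom, and 6.07 and 7.70 for libraries 1 and 2 and 3 and 4 alone. Beyond the pseudocount and the filter, which act by construction, the cause was not tested. The replicate block changed no count: 1 on day 1, 15 on day 3, 31 on days 6 to 25 and 32 in AGO2. Of 1543 values of single members under an alternative, 1508 kept direction and call, 26 lost the call, 7 gained it and 2 reversed with the R1 libraries, *Mir329* on day 1 (-0.68) and *Mir412* on day 3 (-0.061). In AGO2 the median over all 456 features was 0.10, and -0.78 after TMM over all features (29.1% in place of 68.1% of 234 and 166 called features higher) and for Dnmt1 KO on day 25 against day 1 it was -0.01 and -0.40. Over the scalings, the share of called features that were higher was 75.5% (76.8 to 94.6) on day 1, 59.5% (43.8 to 76.1) on day 6, 66.7% (49.4 to 59.4) on day 9, 72.6% (60.5 to 82.1) on day 11, 51.3% (38.9 to 51.4) on day 25 and 67.0% (43.5 to 74.8) for the change to day 11. Counts of all features called ran from 61 to 136 (98) on day 1, 67 to 272 (161) on day 3, 224 to 904 (475) on day 9, 390 to 1206 (904) on day 25 and 68 to 329 (166) in AGO2 over the other settings, and down to 26 without control library 3 of day 1. TMM over all features and the split of the AGO2 libraries were chosen after seeing the data. Depth limits the day 25 controls, where 1 read is 1.23 to 1.92 RPM.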
